A study of Mus musculus with 8 samples.

Results

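The F-box protein family was followed in mouse oocytes that lack both catalytic CAF1-type subunits of the CCR4-NOT complex. Members were all genes of the count table named Fbxw, Fbxl or Fbxo with a number. The rule found 77 of the 46078 genes, 22 Fbxw, 19 Fbxl and 36 Fbxo genes, of which 76 are annotated as protein-coding and 1, Fbxl12os, is an antisense transcript. Of these, 72 were high enough to be tested. Fbxo2, Fbxo4, Fbxo24, Fbxl16 and Fbxl12os were not.

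RNA was sequenced from fully grown germinal vesicle (GV) oocytes of females of 4 weeks on a C57BL/6J background, collected 48 h after an injection of PMSG, a gonadotropin that drives follicle growth. The 4 CNOT7&8 KO libraries came from females with floxed Cnot7 and Cnot8 alleles deleted by Zp3-Cre, a recombinase driven by a zona pellucida promoter that is active in growing oocytes. The 4 control libraries came from Zp3-Cre mice, so both groups carry the recombinase. Each library was made from 100 oocytes, which pools the oocytes of a sample, and nothing in the labels says whether libraries came from separate females, so p-values measure the spread between these libraries.

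F-box proteins are the substrate receptors of SCF ubiquitin ligases. The F-box motif binds Skp1, Skp1 binds the scaffold Cul1, and Cul1 carries the RING protein Rbx1 and a ubiquitin-loaded E2 enzyme. The rest of an F-box protein picks the target: Fbxw proteins do so with WD40 repeats, Fbxl proteins with leucine-rich repeats, and Fbxo proteins with other domains. In oocytes, timed destruction of proteins by ubiquitin ligases drives the meiotic divisions and clears maternal proteins. CCR4-NOT shortens poly(A) tails, a step that starts the decay or silencing of mRNAs, and Cnot7 and Cnot8 are its closely related CAF1-type deadenylases.

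A run of 13 members, Fbxw13 to Fbxw16, Fbxw18 to Fbxw22, Fbxw24 to Fbxw26 and Fbxw28, sits on chromosome 9 of GRCm38 from 109139447 to 109746089, 606643 bases, all on the minus strand. The genes of this cluster are known for expression in oocytes, which cannot be compared with other tissues here. The count table lists 2 genes as Fbxw14. The one with the identifier ENSMUSG00000054087 is Fbxw28 in the GENCODE vM21 annotation and is called so here, and ENSMUSG00000105589 is called Fbxw14. Fbxw17 falls in the same range of numbers but lies on chromosome 13. Its coding sequence was 52.4% to 54.8% identical to those of the 13, which were 79.5% to 99.1% identical among themselves over 78 pairs (median 84.1%).

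The ends of the cluster's mRNAs are shown because deadenylation acts on the poly(A) tail that follows them. In 11 of the 13 genes, an annotated coding transcript had a 3′UTR of 52 to 86 bases and ended 11 to 20 bases after the polyadenylation signal AATAAA. For Fbxw14 this was a transcript with a coding sequence of 1242 bases, against 1395 to 1410 in the other 10, and its longest annotated 3′UTR has 348 bases. Longer 3′UTRs are also annotated for Fbxw21 (911 bases) and Fbxw28 (279 bases). Windows of the last bases are printed 5′ to 3′ on the minus strand of GRCm38, with AATAAA in capitals:
Fbxw16, chr9:109432322-109432351: ttcctcaatgatAATAAAggtctatttgca
Fbxw21, chr9:109139453-109139482: ttcctcaatgatAATAAAagtctatttgca
Fbxw20, chr9:109217437-109217466: ttcctcaatgatAATAAAggtctttttgca
Fbxw15, chr9:109552610-109552639: ttcctcaaagatAATAAAggcctatttgca
Fbxw19, chr9:109478575-109478604: ttccttaatgatAATAAAgatatatttgca
The window of Fbxw16 was the same, letter for letter, in Fbxw18, Fbxw24 and Fbxw25. The annotated transcripts of Fbxw22 and Fbxw26 have longer 3′UTRs of 401 and 389 bases and are not shown.

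A coding transcript of Fbxw17 has a longer 3′UTR, 363 bases, which holds near its end the letters TTTTAT, the DNA form of the cytoplasmic polyadenylation element (CPE, UUUUAU) that CPEB binds. It is printed from the plus strand, with the element in capitals:
Fbxw17, chr13:50433742-50433769: taattaaaatatTTTTATttgcctgtgc

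The promoters are shown as a description of the genes, and whether they bear on the change in KO was not tested. The RefSeq promoter table for GRCm38.p6, which gives 250 bases before to 50 after each annotated start, held 58 of the 77 members and 11 of the 13 cluster genes (not Fbxw13 and Fbxw22). Fbxw16, among the genes that fell most, Fbxw21, which fell least, and Fbxw17 are printed 5′ to 3′ along each gene. Capitals mark E-boxes (CANNTG, a motif that reads the same on both strands) and the word GACTTAGGCCAC:
Fbxw16, chr9:109449091-109449390, minus strand: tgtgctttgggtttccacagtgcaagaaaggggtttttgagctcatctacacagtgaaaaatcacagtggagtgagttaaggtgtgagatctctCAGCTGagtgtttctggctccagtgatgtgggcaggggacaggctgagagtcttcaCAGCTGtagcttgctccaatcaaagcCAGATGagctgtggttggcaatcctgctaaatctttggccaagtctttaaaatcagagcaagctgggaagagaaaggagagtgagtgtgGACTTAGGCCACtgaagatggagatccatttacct
Fbxw21, chr9:109161973-109162272, minus strand: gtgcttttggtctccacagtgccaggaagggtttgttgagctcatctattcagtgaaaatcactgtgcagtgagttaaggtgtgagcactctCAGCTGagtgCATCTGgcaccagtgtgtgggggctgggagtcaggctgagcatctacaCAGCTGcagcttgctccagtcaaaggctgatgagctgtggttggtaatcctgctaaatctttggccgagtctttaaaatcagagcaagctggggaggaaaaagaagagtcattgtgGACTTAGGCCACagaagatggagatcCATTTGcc
Fbxw17, chr13:50417614-50417913, plus strand: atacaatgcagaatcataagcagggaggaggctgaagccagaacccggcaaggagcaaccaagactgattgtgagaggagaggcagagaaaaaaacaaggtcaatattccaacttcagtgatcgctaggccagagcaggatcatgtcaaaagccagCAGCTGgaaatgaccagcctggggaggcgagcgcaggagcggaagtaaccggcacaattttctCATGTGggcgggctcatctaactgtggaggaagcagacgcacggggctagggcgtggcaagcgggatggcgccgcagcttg
All 11 cluster promoters held an E-box, as did 72.3% of the 32851 promoters in the table and that of Fbxw17. The word GACTTAGGCCAC was found by a search for the 12 letters shared by most of the 11, so its presence in all of them is how it was chosen. It stood in 12 entries of the whole table, 0.0365%, which belong to these 11 genes alone. It began 14 to 35 bases after the annotated start in all of them but Fbxw19, where it began at -10. It is thus mostly transcribed sequence of closely similar genes, so its rarity does not mark it as a promoter element. Whether it has a function was not tested. The letters TAATTG, a homeodomain motif searched on both strands, were in none of the 11 and in 8.00% of all promoters.

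The deletion and the libraries were checked first. Counts summed to between 8639444 and 44092144 per library. Cnot8 had 197, 163, 157 and 154 CPM in control replicates 1 to 4 and 33.1, 35.5, 36.0 and 36.1 CPM in KO replicates 1 to 4, and Cnot7 had 1049, 900, 898 and 886 CPM in control and 749, 789, 622 and 717 CPM in KO, so transcripts of Cnot7 were still counted. CPM is the count scaled to the library size, here after TMM scaling. Control replicate 1, the deepest library, stood apart from the other control libraries. Of 10 oocyte markers, 6 were lower and 1 was higher in KO at an adjusted p of 0.05, and their sum lay between 16042 and 17684 CPM in control libraries and between 12987 and 15445 CPM in KO libraries. Of 10 granulosa cell markers 5 were higher and 1 was lower, with sums of 126 to 171 CPM in control and 210 to 263 CPM in KO, and Foxl2 was at or near 0 in every library. Of 5 blood and immune markers 2 were higher, with sums of 0.749 to 1.83 CPM and 3.04 to 5.12 CPM, and Hba-a1 and Hbb-bs were at 0 in every library. The part of these shifts in the results below was not tested.

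In CNOT7&8 KO oocytes the F-box family moved in both directions. Differences came from the quasi-likelihood test of edgeR, p was adjusted over all 19241 tested genes, and a gene was called when its adjusted p was at most 0.05 and its change at least 2-fold. Of the 72 tested members, 11 were called higher in KO (15.3%), against 23.8% of all tested genes, and 9 were called lower (12.5%), against 6.56% of all tested genes. The 11 include Fbxo44, Fbxo27, Fbxl15 and Fbxo41, which were high enough to be tested only through their KO libraries. By adjusted p alone, 16 members were higher (22.2%, 31.2% of all genes), 30 were lower (41.7%, 24.1% of all genes) and 26 did not pass. Values of the groups did not overlap for 41 members, 27 lower and 14 higher in KO, where this held for 21.4% and 27.0% of all genes. The median log2 fold change was -0.18 over the 72 members and 0.12 over all tested genes. With scaling by library size only, the split was 12 higher and 4 lower. Such values are shares of a library's RNA, and fewer cells of a type and less RNA per cell cannot be told apart.

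**Figure D1:**
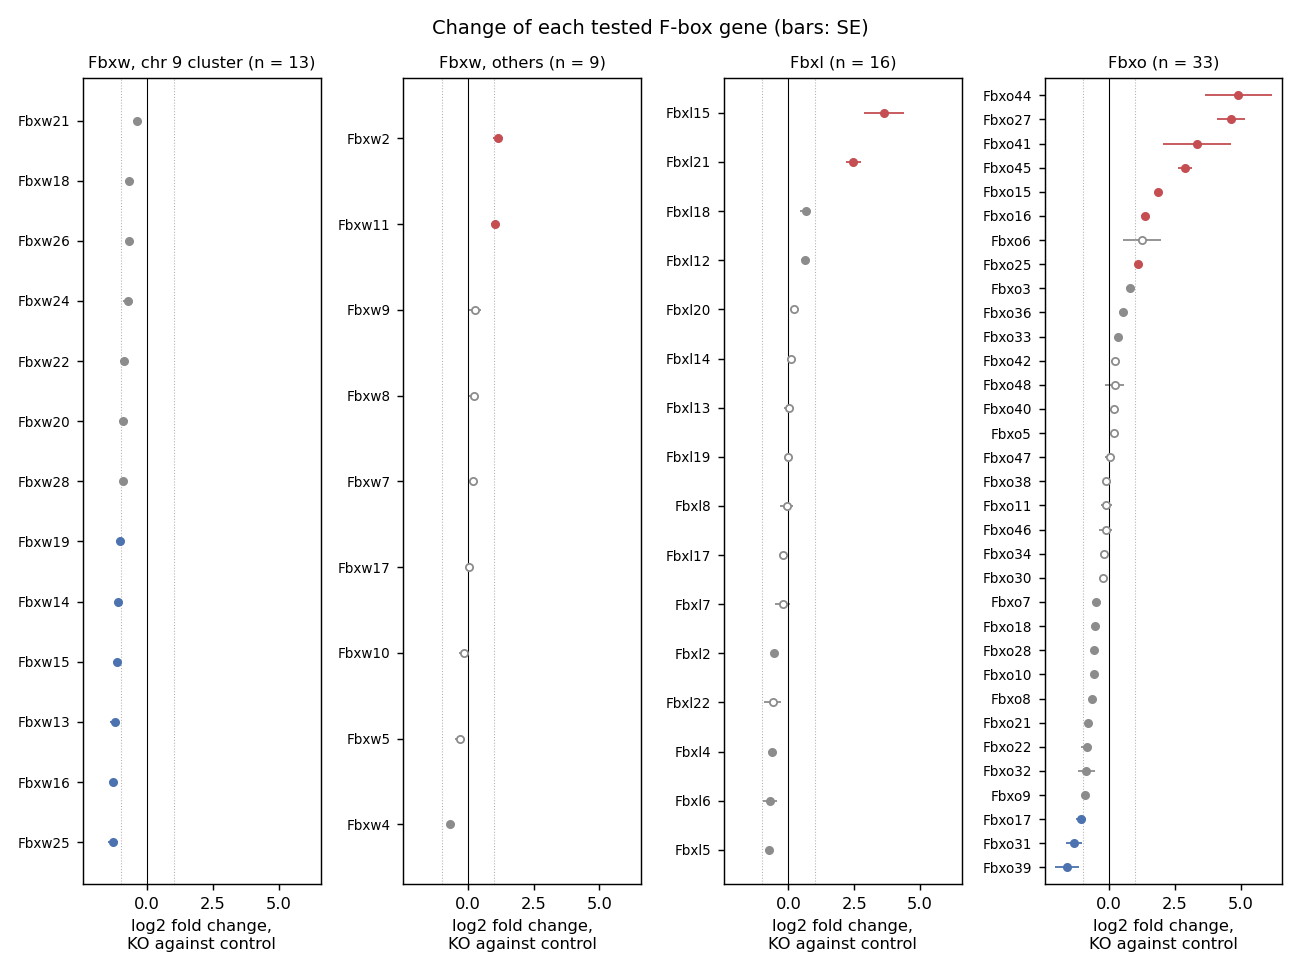
Each point is the log2 fold change (horizontal axis, KO against control) of a tested F-box gene reported here with its standard error, in 4 panels by subfamily. Red and blue points passed the adjusted p and the 2-fold threshold, filled grey points passed the adjusted p alone, and open points passed neither. The 13 cluster genes all lie below 0, between -1.30 and -0.41, while the other members spread from -1.59 to 4.90.

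The chromosome 9 cluster held 6 of the 9 members called lower, and 13 of the 30 that were lower by adjusted p. All 13 of its genes were lower in KO at an adjusted p of 0.05, and 6 of them were also called, Fbxw25, Fbxw16, Fbxw13, Fbxw15, Fbxw14 and Fbxw19. Their log2 fold changes ran from -1.30 to -0.41 with a median of -0.92. These are abundant mRNAs, and abundant genes were often lower: of the 2414 genes averaging 100 CPM or more, 55.2% were lower by adjusted p, 6.05% were called lower, and the median log2 fold change was -0.37. Outside the cluster 59 members were tested, with a median log2 fold change of 0.02. Of these, 11 were called higher (18.6%) and 3 called lower (5.08%), against 23.8% and 6.56% of all tested genes. By adjusted p 16 were higher (27.1%) and 17 lower (28.8%), against 31.2% and 24.1% of all tested genes. Without both control replicate 1 and KO replicate 4, a setting added after seeing the data, the 13 were still lower by adjusted p and 4 were called. Without KO replicate 2, the KO library in which all 13 were highest, 8 were called.

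The cluster made up most of the family's RNA. In control libraries its 13 genes held 71.4% ± 2.49 (SD, n = 4) of all member counts and 1.06% ± 0.120 of a library's counts. In KO libraries these shares were 60.0% ± 4.83 and 0.705% ± 0.117 (SD, n = 4). Of the 10 members with the highest control CPM, a value not corrected for length, 9 belonged to it, the other being Fbxo34. Summed over the cluster, the control libraries had 14203, 9992, 11490 and 11055 CPM, and the KO libraries had 6756, 7704, 5008 and 6159 CPM, so the groups did not overlap. The sum averaged 11685 ± 1792 CPM over the control libraries and 6407 ± 1129 CPM over the KO libraries (SD, n = 4 each).

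Levels of different genes were compared per kilobase of the union of all annotated exons of a gene (RPKM). Fbxw24 had the highest control level, 1603 ± 328 RPKM (SD, n = 4), followed by Fbxw15 at 1286 ± 215, which lay within their spread. Fbxw18, Fbxw21, Fbxw28 and Fbxw16 formed the next group, from 587 to 483 RPKM, with neighbours closer than their SDs. Fbxw26, Fbxw14, Fbxw19, Fbxw22, Fbxw20 and Fbxw13 followed from 312 down to 171 RPKM, and Fbxw25 was lowest at 67.7 ± 15.6. Part of this order rests on the length used. Per kilobase of the coding transcript, a measure added after seeing the data, Fbxw21 came next after Fbxw15 at 870 RPKM and Fbxw19 moved up to 604 RPKM, beside Fbxw28 at 656, Fbxw18 at 587 and Fbxw16 at 581, while Fbxw24, Fbxw15 and Fbxw25 kept their places. In KO oocytes Fbxw24 stayed first at 955 ± 166 RPKM, and Fbxw15 was at 578 ± 124. Fbxw17 had 7.14 ± 0.257 RPKM in control and 7.44 ± 0.484 in KO per kilobase of all exons, and means of 15.2 and 15.8 RPKM per kilobase of the coding transcript.

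Fbxw16 had 1034, 720, 857 and 869 CPM in control replicates 1 to 4 and 380, 426, 268 and 339 CPM in KO replicates 1 to 4. Every KO library lay below every control library, and the log2 fold change was -1.30 (SE 0.15, edgeR adjusted p = 2.4e-05). The KO mean was 40.6% of the control mean.
Fbxw25, the least abundant of the 13, had 134, 81.3, 98.7 and 89.3 CPM in control and 46.4, 50.1, 29.9 and 37.3 CPM in KO (log2 fold change -1.30, SE 0.19, edgeR adjusted p = 0.00012). Fbxw13 had 312, 215, 244 and 263 CPM in control and 114, 140, 81.0 and 104 CPM in KO (log2 fold change -1.24). In both genes the groups stood well apart, and the KO means were 40.6% and 42.4% of control.
Fbxw15 had 2354, 1631, 1971 and 1734 CPM in control and 922, 1088, 652 and 793 CPM in KO, a log2 fold change of -1.15 (SE 0.16, edgeR adjusted p = 9.6e-05). Fbxw14 had 662, 536, 601 and 594 CPM in control and 291, 346, 230 and 250 CPM in KO (log2 fold change -1.10). Fbxw19 had 1012, 819, 881 and 871 CPM in control and 470, 528, 339 and 406 CPM in KO (log2 fold change -1.04). The last of these lay near the 2-fold threshold: Fbxw19 was not called without control replicate 1, KO replicate 3 or KO replicate 4, and Fbxw14 not without KO replicate 3. With library size only or TMM on genes of at least 10 CPM, Fbxw13, Fbxw14, Fbxw15 and Fbxw19 were lower by adjusted p but not called. Fbxw14 and Fbxw19 were also not called with upper quartile factors, nor Fbxw19 with the filter of at least 1 CPM in 4 libraries.

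The other 7 genes fell by less than 2-fold. Fbxw28, Fbxw20 and Fbxw22 had log2 fold changes of -0.92, -0.90 and -0.88, and their KO means were 52.9%, 53.5% and 54.2% of control. Fbxw24 went from 3088, 1972, 2306 and 2174 CPM to 1481, 1689, 1093 and 1421 CPM (log2 fold change -0.75, SE 0.16, edgeR adjusted p = 0.0019). Fbxw26 and Fbxw18 had log2 fold changes of -0.69 and -0.68. Fbxw21 changed least, with 1634, 1108, 1290 and 1233 CPM in control and 1025, 1148, 814 and 986 CPM in KO (log2 fold change -0.41, SE 0.14, edgeR adjusted p = 0.026). It was the single cluster gene whose groups overlapped, and it did not pass the adjusted p with scaling by library size only (log2 fold change -0.12, adjusted p = 0.41). Nor did Fbxw21 pass in edgeR with TMM on genes of at least 10 CPM (adjusted p = 0.271) or upper quartile factors (0.0773). With the filter of at least 1 CPM in 4 libraries it was just short (0.0518). In each of these settings 12 cluster genes were lower by adjusted p.

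**Figure D2:**
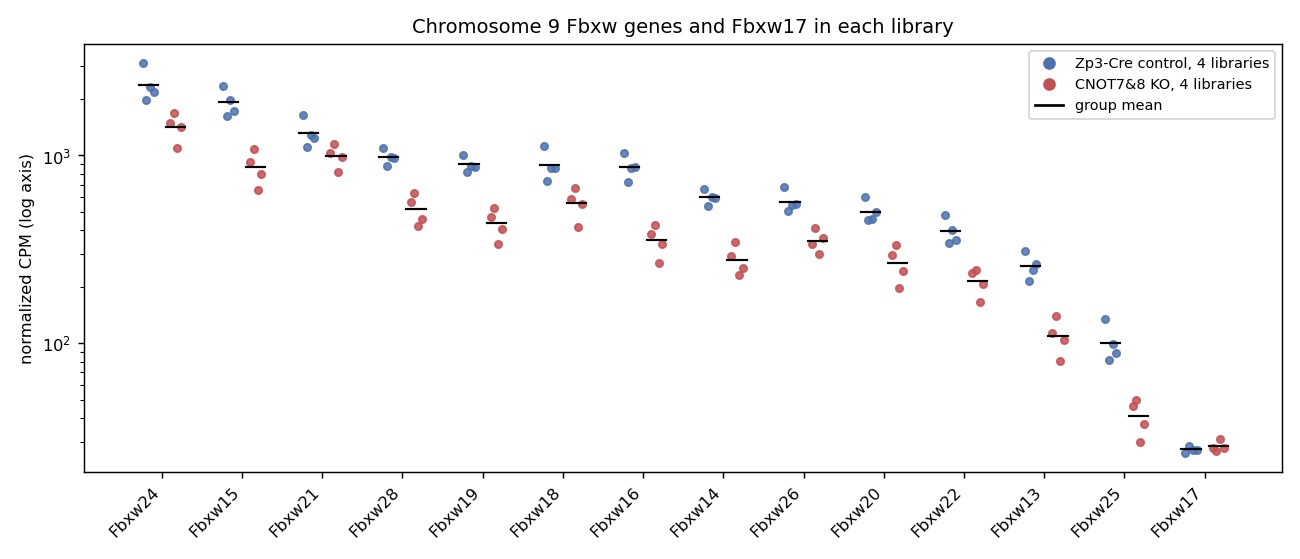
Normalized CPM on a log axis for each of the 13 cluster genes and for Fbxw17, with 4 control (blue) and 4 KO (red) libraries per gene and black lines at the group means. The KO points lie below the control points for every cluster gene except Fbxw21, where they overlap, and both groups of Fbxw17 sit near 27 to 28 CPM.

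Fbxw17, off the cluster, had 26.2, 28.6, 27.1 and 27.2 CPM in control and 27.9, 26.9, 31.1 and 27.8 CPM in KO. The groups overlapped and the log2 fold change was 0.06 (SE 0.12, edgeR adjusted p = 0.69). The ratio of summed cluster CPM to Fbxw17, which no scaling of libraries can alter, was 350 to 542 over the control and 161 to 287 over the KO libraries. With scaling by library size only, Fbxw17 itself was higher in KO (log2 fold change 0.34, adjusted p = 0.0301).

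The 13 genes also varied together within each group. Control replicate 1 had the highest and control replicate 2 the lowest value of all 13, and among KO libraries replicate 2 had the highest and replicate 3 the lowest value of all 13. Near-identical copies could share reads: of all 150-base stretches of the coding transcript, the length of a read, 30.2% in Fbxw14 and 32.2% in Fbxw28 recurred in another gene's transcripts, and 0% in each of the other 11. Counts of Fbxw14 and Fbxw28, whose coding sequences were 99.1% identical, are therefore uncertain one by one. Fbxw15 and Fbxw16 share 168 and 210 exonic bases with unnamed genes on the opposite strand.

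The fall was not even across the cluster. As a share of the 13 genes' counts, a measure that does not depend on the library size, Fbxw21 took 11.5%, 11.1%, 11.2% and 11.1% in control and 15.2%, 14.9%, 16.3% and 16.0% in KO libraries. Fbxw16 took 7.28%, 7.20%, 7.46% and 7.86% in control and 5.63%, 5.53%, 5.36% and 5.51% in KO. The shares of 6 genes, Fbxw13, Fbxw14, Fbxw15, Fbxw16, Fbxw19 and Fbxw25, were lower in every KO than in every control library. Those of 3, Fbxw18, Fbxw21 and Fbxw24, were higher, and those of the other 4 overlapped. Shares add up to a fixed total, so a higher share here means a smaller fall than that of the cluster, not a rise. In CPM, the groups did not overlap for 48.4% of all tested genes. The ratio of Fbxw16 to Fbxw21 counts averaged 0.663 ± 0.0311 over the control and 0.354 ± 0.0206 over the KO libraries (SD, n = 4 each). This pair was picked after the values were seen, and its ratio is a description. Their coding sequences were 85.3% identical, and the transcript ends printed above were nearly the same. Their longest annotated 3′UTRs differed, with 86 bases in Fbxw16 and 911 bases in Fbxw21, and only that of Fbxw21 held ATTTA, an AU-rich pentamer. Whether this bears on the uneven fall was not tested.

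**Figure D3:**
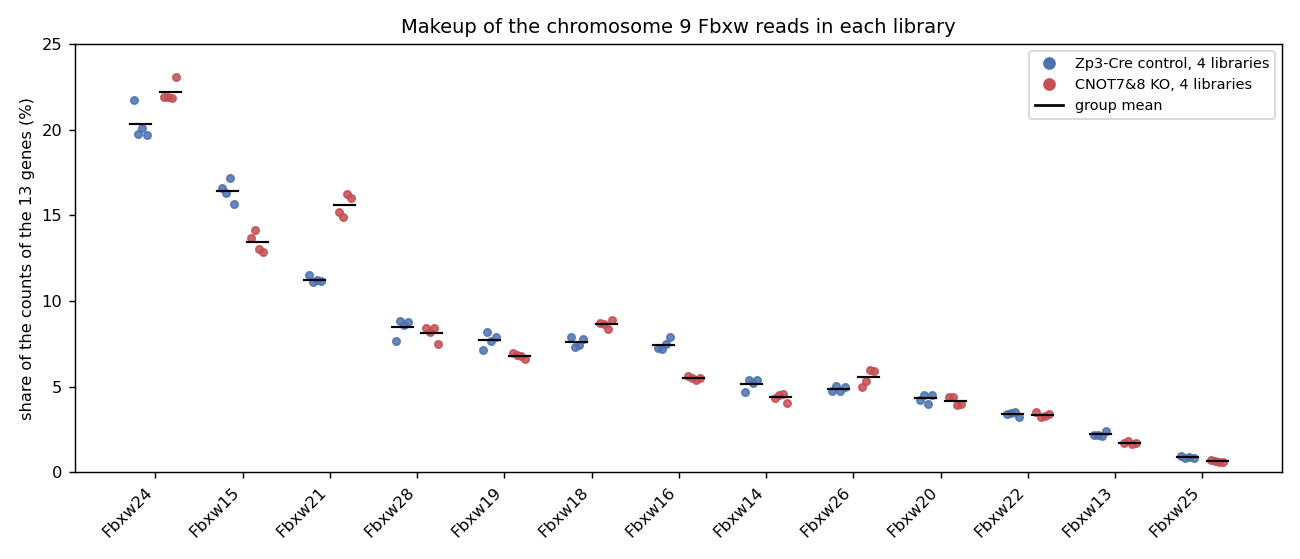
Share of the counts of the 13 cluster genes taken by each gene (vertical axis, %), with 4 control (blue) and 4 KO (red) libraries and black lines at the group means. Fbxw21 rises from a mean of 11.2% to 15.6% and Fbxw15 falls from 16.4% to 13.4%.

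Along the chromosome, the change did not stop at the genes named Fbxw in the count table. Fbxw23, a transcribed pseudogene, and Fbxw27, a protein-coding gene, are listed in it under clone names and were not counted as members. Fbxw23 went from 111 ± 19.0 to 44.8 ± 12.7 CPM (SD, n = 4 each, log2 fold change -1.32, called lower) and Fbxw27 from 551 ± 63.5 to 306 ± 40.6 CPM (log2 fold change -0.85, lower by adjusted p). The flanking genes did not share one direction. Plxnb1 beside Fbxw21 was lower (log2 fold change -0.81), Ccdc51 was called higher (2.02) and Tma7 was at -0.04. Beyond Fbxw27, Spink8 did not pass (0.70), Nme6 was called lower (-1.43), and Cdc25a, a phosphatase that activates cyclin-dependent kinases, was lower by adjusted p (-0.47).

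**Figure D4:**
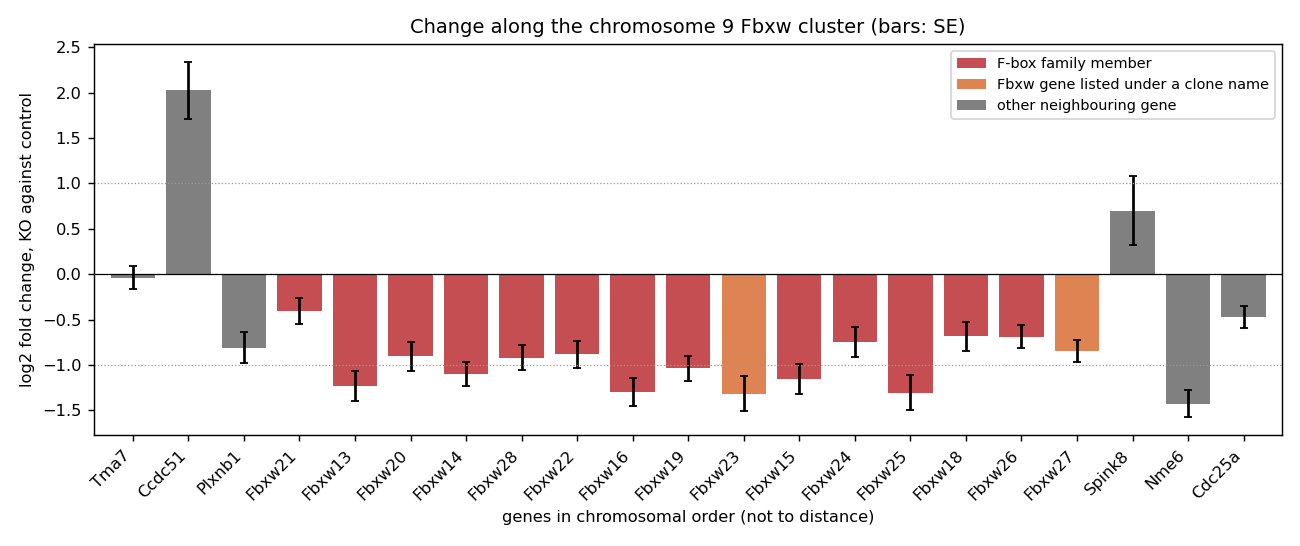
Log2 fold change with its standard error (vertical axis) of the genes in the order of the chromosome, from Tma7 to Cdc25a, not drawn to distance. All 13 members (red) and the 2 Fbxw genes under clone names (orange) lie below 0, while the grey neighbours range from -1.43 to 2.02.

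Outside the cluster, the called members were mostly genes of low or middle level, and the largest rise among those of at least 1 CPM was that of Fbxo45. Fbxo45, which acts with the ubiquitin ligase MYCBP2 in neurons, lies on chromosome 16 from 32230112 to 32247158. It had 10.1, 4.79, 6.12 and 5.17 CPM in control replicates 1 to 4 and 35.9, 42.4, 50.2 and 68.5 CPM in KO replicates 1 to 4. The groups stood far apart, with a rise of 7.41-fold (log2 fold change 2.89, SE 0.27, edgeR adjusted p = 4e-06).
Fbxl21, which targets the cryptochromes of the circadian clock and lies on chromosome 13 from 56522472 to 56537898, had 3.34, 1.63, 4.08 and 2.26 CPM in control and 12.2, 13.2, 18.1 and 18.9 CPM in KO (log2 fold change 2.46, SE 0.27, edgeR adjusted p = 1.6e-05). Fbxo15, known as a marker of embryonic stem cells, had 16.7, 13.7, 17.6 and 17.5 CPM in control and 62.9, 61.4, 53.9 and 61.3 CPM in KO, a 3.66-fold rise (log2 fold change 1.87, SE 0.13, edgeR adjusted p = 4.8e-07). In both genes every KO library exceeded every control library.
Fbxo16 had 15.7, 12.7, 12.9 and 11.0 CPM in control and 37.0, 33.4, 31.6 and 34.2 CPM in KO (log2 fold change 1.37). Fbxo25, a relative of the muscle protein Fbxo32, had 20.8, 24.7, 28.6 and 25.1 CPM in control and 49.4, 58.3, 54.3 and 50.1 CPM in KO (log2 fold change 1.10). Fbxw2 had 13.7, 11.2, 7.89 and 10.6 CPM in control and 25.3, 18.1, 26.6 and 26.2 CPM in KO (log2 fold change 1.14). None of the 3 overlapped between groups.
Fbxw11, also called β-TrCP2, marks phosphorylated proteins such as β-catenin for destruction. It had 57.2, 41.1, 42.1 and 43.5 CPM in control and 95.9, 75.0, 95.1 and 114 CPM in KO (log2 fold change 1.04, SE 0.15, edgeR adjusted p = 0.00012). It fell just short of 2-fold without control replicate 2 (0.99) or KO replicate 4 (0.97). Its paralog Btrc, β-TrCP1, moved the other way, from 213 ± 11.4 to 128 ± 5.76 CPM (SD, n = 4 each, log2 fold change -0.73, lower by adjusted p).

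A CPE is shown for called risers because CCR4-NOT meets CPEB on such mRNAs. Of the 11 members called higher, all with an annotated 3′UTR, 6 held TTTTAT in the longest 3′UTR, as did 56.2% of the 15125 tested protein-coding genes with a 3′UTR of at least 50 bases. Fbxo15 and Fbxw2 are among the 6 and are not shown. Of the 2 copies in Fbxl21, the one nearer the transcript end is shown. Windows of the other genes are printed 5′ to 3′ along the mRNA, on GRCm38, with TTTTAT in capitals:
Fbxo45, chr16:32232637-32232666, minus strand: aaactggctgggTTTTATttaatattttta
Fbxl21, chr13:56537849-56537878, plus strand: ttattattttaaTTTTATctggttcatttg
Fbxw11, chr11:32745112-32745141, plus strand: atagctattttcTTTTATtaactgttctct
Fbxo25, chr8:13940442-13940471, plus strand: taaaatgtgctgTTTTATtttaaaaataat
In Fbxl21 and Fbxo25 the element shown ends 32 and 63 bases before the annotated transcript end, and in Fbxo45 and Fbxw11 2537 and 1687 bases before it.

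None of the 13 cluster genes had TTTTAT in its longest 3′UTR, whose median length was 62 bases, against 1119 bases for all tested protein-coding genes. Of the tested genes with a longest 3′UTR of 50 to 100 bases, 7.49% held it, and 8 cluster genes fall in that range. Of 58 tested members outside the cluster with a 3′UTR, 33 (56.9%) held TTTTAT. The Pumilio element TGTAAATA stood in 7 of these 58 (12.1%), and the AU-rich pentamer ATTTA in 44 (75.9%, and 69.8% of all genes). Of the cluster, none held TGTAAATA and 2, Fbxw21 and Fbxw22, held ATTTA.

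Several called risers were close to absent in control oocytes, so the size of their change is poorly fixed. Fbxo27, Fbxo44, Fbxl15 and Fbxo41 passed the filter only through KO libraries, so a call of lower was hardly possible for them. Fbxo27, a lectin-like receptor of glycoproteins, had 2, 0, 1 and 2 counts in control and 17, 29, 25 and 44 counts in KO libraries. That is a ratio of 27.1 after TMM scaling of the library sizes (95% exact counting interval 11.3 to 85.1, counting error only). The edgeR log2 fold change was 4.63 (adjusted p = 1.8e-05). Its relative Fbxo44 had 0 counts in each control library and 2, 1, 5 and 5 counts in KO, at least 1.15-fold higher than the mean of the control libraries' limits of 3 counts each.
Fbxl15, which acts on the BMP pathway regulator Smurf1, had 1, 5, 0 and 0 counts in control and 10, 12, 25 and 18 counts in KO (edgeR log2 fold change 3.64, adjusted p = 0.0017). It shares 345 exonic bases with Cuedc2 on the opposite strand, which matters because the strand setting of the counting is not given in the sources used here. Fbxo41, a neuronal gene, had 0, 0, 1 and 1 counts in control and 0, 0, 12 and 12 in KO, so its groups overlapped. It was called by the quasi-likelihood test (adjusted p = 0.044), and neither by edgeR's exact test (adjusted p = 0.095) nor by DESeq2 (adjusted p = 0.0697), nor without any 1 of the 4 control libraries (0.0523 to 0.109).

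**Figure D5:**
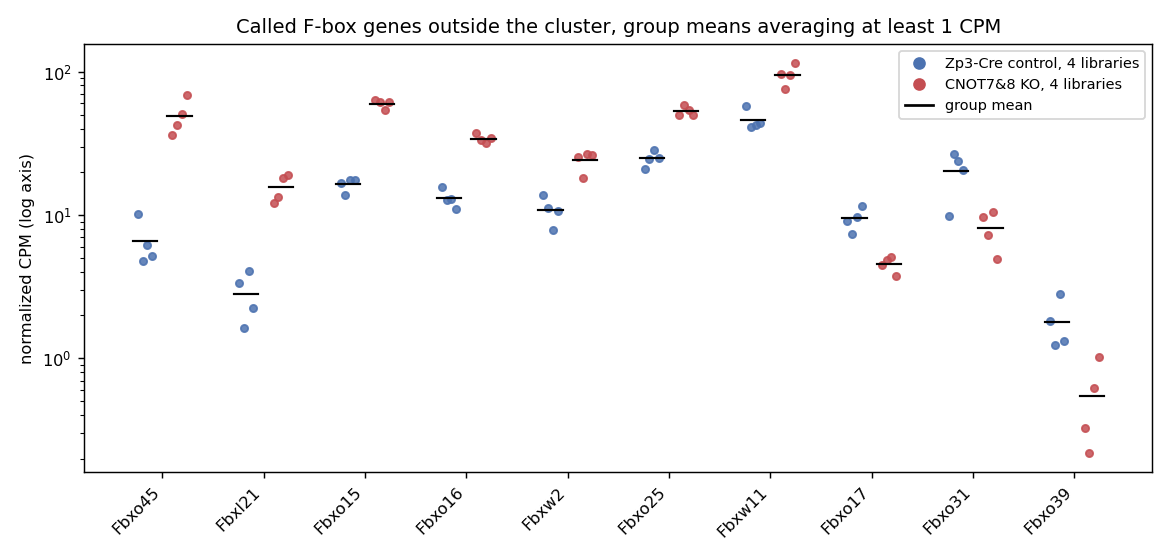
Normalized CPM on a log axis for the 10 called members outside the cluster whose group means average at least 1 CPM, with 4 control (blue) and 4 KO (red) libraries and black lines at the group means. The groups are apart for every gene except Fbxo31, in which control replicate 1, at 9.81 CPM, lies among the KO libraries.

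Outside the cluster 3 members were called lower. Fbxo17, another lectin-like receptor of glycoproteins that lies near Fbxo27 on chromosome 7, had 9.14, 7.40, 9.73 and 11.5 CPM in control and 4.45, 4.83, 5.12 and 3.78 CPM in KO (log2 fold change -1.05, SE 0.19, edgeR adjusted p = 0.00059). It was not called without control replicate 4 or KO replicate 4. Nor was Fbxo17 called with library size only (log2 fold change -0.77), TMM on genes of at least 10 CPM (-0.81) or upper quartile factors (-0.96). The same held with the filter of at least 1 CPM in 4 libraries (-0.99). Fbxo27 ends at base 28699338 and Fbxo17 starts at base 28716804 of the same strand, so these neighbours moved in opposite directions.
Fbxo31, which targets cyclin D1 after DNA damage, had 9.81, 26.5, 23.7 and 20.5 CPM in control and 9.66, 7.31, 10.5 and 4.90 CPM in KO (log2 fold change -1.33, SE 0.31, edgeR adjusted p = 0.0031). The groups overlapped through control replicate 1, and without it the log2 fold change was -1.57. Fbxo39 had 1.82, 1.23, 2.79 and 1.31 CPM in control and 0.326, 0.220, 0.617 and 1.02 CPM in KO (log2 fold change -1.59, SE 0.45, edgeR adjusted p = 0.0103), with no overlap.

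Of the 9 tested members with roles in the cell cycle, Fbxw11 was called higher, Fbxo31 was called lower and 7 did not pass the adjusted p, where 23.8% of all tested genes were called higher, 6.56% called lower and 8613 of 19241 did not pass. Fbxo5, or Emi1, which inhibits the anaphase-promoting complex, had 155, 130, 138 and 133 CPM in control and 155, 162, 145 and 167 CPM in KO (log2 fold change 0.18, SE 0.10, adjusted p = 0.16 by edgeR). It was higher in KO by adjusted p without control replicate 1 (edgeR adjusted p = 0.0422) or KO replicate 3 (0.0402), and with library size only (log2 fold change 0.46, adjusted p = 0.0009). Fbxo30, needed for chromosome segregation in oocyte meiosis, had 458, 334, 351 and 332 CPM in control and 285, 300, 294 and 383 CPM in KO. Fbxo30 did not pass (edgeR adjusted p = 0.18) but was lower without KO replicate 4 (adjusted p = 0.0294). Fbxo34, which had the highest level per length outside the cluster (133 RPKM in control), had 553, 597, 547 and 581 CPM in control and 497, 483, 502 and 511 CPM in KO, groups that did not overlap, with a log2 fold change of -0.19 (adjusted p = 0.083 by edgeR, and 0.0349 without control replicate 1). Fbxw7, the receptor for cyclin E, averaged 18.4 ± 4.14 CPM over control and 20.9 ± 3.52 CPM over KO libraries (SD, n = 4 each). Fbxw5, Fbxw8 and Fbxo47 did not pass either, with log2 fold changes of -0.31, 0.22 and 0.04. With library size only, Fbxw7 and Fbxw8 were higher in KO (adjusted p = 0.0325 and 0.032 by edgeR).

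Among members with roles in the clock, iron and mitochondria, Fbxl21 was called higher and 3 were lower by adjusted p, where 24.1% of all tested genes were lower. Fbxl5, the iron sensor that degrades iron regulatory protein IRP2, had 202, 145, 150 and 147 CPM in control and 95.1, 101, 83.7 and 104 CPM in KO (log2 fold change -0.75, SE 0.13, edgeR adjusted p = 0.00048). Fbxl4, a mitochondrial protein that restrains mitophagy, went from 23.5 ± 2.20 to 15.3 ± 1.90 CPM (SD, n = 4 each). Fbxo7, a partner of Parkin, went from 41.3 ± 4.72 to 28.9 ± 2.75 CPM (SD, n = 4 each). The groups of these 3 did not overlap, but with library size only Fbxl4 (adjusted p = 0.0559 by edgeR) and Fbxo7 (0.129) did not pass.

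A list of 5 related members held known receptors of glycoproteins, and whether each of the 5 binds glycoproteins was not examined. Of these, 4 were tested: Fbxo27 and Fbxo44 were called higher and Fbxo17 lower. Fbxo6, at 0.116 ± 0.0693 and 0.262 ± 0.210 CPM (SD, n = 4 each), did not pass. The shares over all tested genes were 23.8% called higher and 6.56% called lower, and Fbxo27 and Fbxo44 were tested only through their KO counts. Of 10 members best known from muscle, heart, brain, testis or embryonic stem cells, 8 were tested. Fbxo45, Fbxo15 and, in the quasi-likelihood test alone, Fbxo41 were called higher (37.5%) and Fbxo39 lower (12.5%), against the same 23.8% and 6.56% of all genes. Fbxo41 was tested only through its KO counts. Fbxo32, or atrogin-1, a ligase of muscle wasting, was lower by adjusted p at 8.66 ± 3.41 against 4.72 ± 1.53 CPM (SD, n = 4 each, edgeR adjusted p = 0.0374), with overlapping groups. It did not pass without control replicate 1, 3 or 4 or without KO replicate 1, 3 or 4 (adjusted p = 0.0637 to 0.113), and was called lower without control replicate 2 or KO replicate 2. Fbxo40, a muscle protein that was abundant here, had 187, 155, 158 and 159 CPM in control and 189, 199, 172 and 191 CPM in KO and did not pass (log2 fold change 0.19). It was higher in KO by adjusted p without control replicate 1 (edgeR adjusted p = 0.0234) or KO replicate 3 (0.0298), and with library size only (log2 fold change 0.48, adjusted p = 0.000626). Fbxl13 and Fbxl22 did not pass, with log2 fold changes of 0.02 and -0.60, and Fbxl22 was lower by adjusted p without control replicate 1 (edgeR adjusted p = 0.0326).

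The other members outside the cluster, in none of these lists, made up 34 genes, of which 33 were tested. Besides the 4 called risers among them, Fbxl15, Fbxo16, Fbxo25 and Fbxw2, 5 were higher by adjusted p at less than 2-fold: Fbxo3, Fbxl18, Fbxl12, Fbxo36 and Fbxo33. The 10 that were lower by adjusted p were Fbxo9, Fbxo22, Fbxo21, Fbxl6, Fbxw4, Fbxo8, Fbxo10, Fbxo28, Fbxl2 and Fbxo18, with none called. Of the 33, 12.1% were called higher and 0% lower, against 23.8% and 6.56% of all tested genes. By adjusted p 27.3% were higher and 30.3% lower, against 31.2% and 24.1% of all tested genes. The following 3 examples were picked after their values were seen.
Fbxo9 had 40.1, 35.2, 35.0 and 36.5 CPM in control and 19.0, 23.4, 18.3 and 18.0 CPM in KO (log2 fold change -0.90, SE 0.13, edgeR adjusted p = 0.00012). Fbxo18, the DNA helicase also called Fbh1, had 392, 359, 346 and 329 CPM in control and 245, 237, 246 and 246 CPM in KO (log2 fold change -0.55). Fbxo3 had 116, 82.2, 67.2 and 68.0 CPM in control and 136, 138, 140 and 170 CPM in KO (log2 fold change 0.81, SE 0.17, edgeR adjusted p = 0.0016). The groups were apart in all 3 genes. Fbxl12 shares 1890 exonic bases with Ubl5 on the opposite strand, so its value is uncertain. The same limit holds for other members that share exonic bases with a gene on the opposite strand. Among them are Fbxw8 (1845 bases), Fbxw4 (676), Fbxl2 (496), Fbxo22 (368), Fbxl22 (317), Fbxo7 (314) and Fbxo3 (190).

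The partners of the F-box proteins were measured as a list of 31 SCF and neddylation genes, all tested. Of these 1 was called higher (3.23%) and 1 called lower (3.23%), and by adjusted p 1 was higher and 14 were lower (45.2%), with a median log2 fold change of -0.26. Over all tested genes 23.8% were called higher and 6.56% called lower, and by adjusted p 31.2% were higher and 24.1% lower. Of the genes averaging 100 CPM or more, 55.2% were lower by adjusted p. The core showed small decreases in abundant mRNAs. Cul1 had 2314, 1669, 1780 and 1649 CPM in control and 1258, 1410, 1056 and 1266 CPM in KO (log2 fold change -0.57), and Rbx1 had a log2 fold change of -0.37. Skp1a, the adaptor, went from 3405 ± 283 to 2847 ± 195 CPM (SD, n = 4 each, log2 fold change -0.26, edgeR adjusted p = 0.0491). Dcun1d3, which helps attach NEDD8 to cullins, was called higher, with 15.1, 10.7, 9.87 and 9.62 CPM in control and 26.6, 22.3, 27.9 and 36.1 CPM in KO (log2 fold change 1.31). Cdc34, an E2 enzyme of SCF ligases, was called lower, from 49.1 ± 16.2 to 24.4 ± 9.09 CPM (SD, n = 4 each, log2 fold change -1.01), and this call was lost without control replicate 3, control replicate 4, KO replicate 2 or KO replicate 4. Of 7 F-box genes under other names, 6 were tested and none was called: Lmo7 (log2 fold change -0.96), Btrc and Skp2 (-0.51) were lower by adjusted p, and Ccnf, Kdm2a and Kdm2b did not pass.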

How the data were processed

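RNA of 4 CNOT7&8 KO and 4 Zp3-Cre control samples, grouped by their labels, was sequenced as 150-base read pairs. Ribosomal RNA was depleted, with a stranded total RNA kit by the labels and a stranded mRNA kit by the methods. By the methods, the authors ran the nf-core/rnaseq pipeline, in which reads were mapped with STAR 2.6.1d to GRCm38. They deposited raw read counts per gene, and per the labels edgeR 3.11 was part of their processing. The counting tool, annotation and strand setting used within the pipeline are not given in the sources used here.

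Genes with at least 0.2 CPM in 2 libraries, 19241 of 46078, were tested in R 4.3.3 with edgeR 4.0.16 (TMM, quasi-likelihood test, Benjamini-Hochberg over all tested genes). Calls needed a 2-fold change and an adjusted p no higher than 0.05. DESeq2 1.42.0, edgeR's exact test, other scalings, filters and thresholds, a replicate block and leaving out each library were alternatives. Each test was first tested on simulated data. Coordinates, lengths and 3′UTRs came from GENCODE vM21, which held 98.2% of identifiers, and promoters from RefSeq on GRCm38.p6. Python 3.11.15, pandas 2.3.3, scipy 1.17.1, Biopython 1.88 and matplotlib 3.10.9 did the rest.

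The members and lists were chosen with earlier results of these data known. Genes were named if called, in the Fbxw13 to Fbxw28 range, among the 10 highest in control, or in a role list, with called SCF genes added. Btrc, Skp2, Cul1, Rbx1, Skp1a, Lmo7 and the cluster's neighbours were added after their values were seen. Some genes that the name rule also matches are not reported here. At most 3 counts was taken as not detected, 0.068 CPM in the deepest and 0.347 CPM in the shallowest library before scaling. The labels do not say whether same-numbered libraries belong together, and the main test treated them as unpaired. Deviations of same-numbered libraries correlated at -0.13, -0.08, 0.21 and -0.24. With so few libraries per group, these values cannot decide it.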

Additional observations from a re-analysis of the deposited data

Results flagged for a closer look

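Among 86 groups of 4 libraries, 10 had a single library far from the other 3 by Dixon's test at 95%, where chance would flag about 4.3. Control replicate 1 was that library in 5 of them: it was high for Fbxl5 (202 CPM, the others 145 to 150), Fbxo30 (458 CPM, the others 332 to 351), Fbxo40 (187 CPM, the others 155 to 159) and Fbxw11 (57.2 CPM, the others 41.1 to 43.5), and low for Fbxw8 (72.2 CPM, the others 94.7 to 98.6).
KO replicate 4 was high for Fbxo30 (383 CPM, the others 285 to 300) and for Fbxw7 (26.2 CPM, the others 18.8 to 19.4). KO replicate 2 was low for Fbxw2 (18.1 CPM, the others 25.3 to 26.6). Control replicate 4 was high for Fbxw5 (13.5 CPM, the others 9.19 to 9.84), and control replicate 2 was high for Fbxl15 (0.247 CPM, the others at most 0.0267).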

How the results depend on the processing

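Across edgeR's exact test, DESeq2, RLE factors and no filter, counts of called F-box and cluster genes stayed within 1.5 times those reported. Scaling by library size only moved all log2 fold changes up by a median of 0.29, and TMM restricted to genes above 10 CPM by 0.25. Either left 4 F-box genes and 2 cluster genes called lower, 0 SCF genes called lower, and 1 gene of the Fbxw13 to Fbxw28 range, Fbxw17, higher by adjusted p. SCF genes higher by adjusted p then numbered 5 and 4, and 9 were lower with library size only. All 13 cluster genes stayed below 0 in these fits, and 12 of them, all but Fbxw21, were lower by adjusted p. Upper quartile factors and the filter of at least 1 CPM in 4 libraries gave 0 SCF genes called lower and 2 higher by adjusted p, as DESeq2, RLE factors, no filter and the fit without both control replicate 1 and KO replicate 4 gave 2 higher. A 1.5-fold threshold called 24 F-box, 12 cluster and 9 SCF genes lower. With one library left out, F-box genes called lower ranged from 7 to 12, cluster genes from 4 to 8, SCF genes called lower from 0 to 1 and SCF genes higher by adjusted p from 1 to 2.
Signs that reversed were all near 0 and never past the threshold: with one library left out, log2 fold changes ran from -0.035 to 0.16 for Fbxl13 and from -0.060 to 0.17 for Fbxo47, and with library size only or the restricted TMM, Fbxo30 had 0.064 and 0.033 and Fbxo34 had 0.088 and 0.052. Why these values moved was not tested. Whether replicate numbers pair these samples is not known. With the replicate block, 10 F-box genes were called higher and 9 lower, 6 of them in the cluster, and Fbxo41 was not called. Among named genes, the adjusted p of Fbxo32, Fbxo5, Fbxo40, Fbxo34, Fbxo30, Fbxl22 and Fbxo41 crossed 0.05 with a library left out, as given above. Depth limits the genes near 0 counts, above all in KO replicate 1 with 8639444 counts.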
